A study of Homo sapiens with 4 samples.

Results

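Kinetochore, centromere and spindle checkpoint genes were examined in 2 human gastric cancer cell lines exposed to periplocymarin, a cardiac glycoside of the cardenolide type. The 42 genes were taken from a fixed list of symbols, each matched by symbol to an Ensembl identifier. All 42 were found among the 62710 genes of the deposited table. HGC27 is an undifferentiated line and MKN45 a poorly differentiated line, both established from gastric cancers. Cells of each line received 0.3 µM periplocymarin, or 0.1% DMSO as the vehicle, for 24 h. All 4 groups grew in the same serum-containing medium, and the labels name no engineered allele. Each group is 1 library of messenger RNA captured on beads, so a comparison within a line has no replicate.

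The centromere is marked by nucleosomes that hold CENP-A in place of histone H3, and on them the inner kinetochore assembles as a network of CENP proteins. The outer kinetochore, made of KNL1, the MIS12 complex and the NDC80 complex, binds spindle microtubules. Unattached kinetochores recruit the checkpoint kinases and MAD and BUB proteins, which delay anaphase by holding back CDC20, the activator of the anaphase-promoting complex. Many of these genes are transcribed most in G2 and mitosis. Their RNA in a bulk library therefore depends both on how many cells are in those phases and on the RNA per cell, which cannot be told apart here.

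Values are FPKM, a level scaled by gene length and library size. Comparing levels of different genes rests on the gene lengths used, which the labels do not give. Of the lengths of the 42 genes, 32 had to be inferred from the values. Reads recovered from the values came to between 24882598 and 36567061 per library, and each of the 42 genes had between 159 and 18284 reads in a library. Fewer genes were above 0 in the treated libraries (21774 in HGC27 and 21757 in MKN45) than in the vehicle libraries (25992 and 25494). Epithelial markers (EPCAM, CDH1 and the keratins KRT8, KRT18 and KRT19) summed to 1598 FPKM in vehicle and 2864 FPKM in treated MKN45. There EPCAM, KRT8 and KRT18 were higher after treatment, and CDH1 (127 to 113 FPKM) and KRT19 (204 to 153 FPKM) were lower. In HGC27 the sums were 0.580 and 0.399 FPKM, so HGC27 lacked the defining markers of an epithelial line. Mesenchymal markers (VIM, CDH2 and COL1A1) summed to 444 and 463 FPKM in vehicle and treated HGC27, with CDH2 near 0, and to 0.819 and 0.529 FPKM in MKN45. Fibroblast markers (DCN, LUM and PDGFRB) summed to 50.7 FPKM in vehicle and 104 FPKM in treated HGC27, and to 0.0850 and 0 FPKM in MKN45. In HGC27 LUM went from 40.7 to 92.5 FPKM, while PDGFRB went from 0.843 to 0.0655 FPKM. Immune markers reached at most 2.46 FPKM and endothelial markers at most 0.0245 FPKM in any library. The part of the marker shifts in the results was not tested.

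Of the 42 genes, 11 rose and 0 fell after periplocymarin over both lines, in a limma fit to log2(FPKM + 1) with the line as a block and Benjamini-Hochberg adjusted p under 0.05. Over all 12353 genes tested, 3.43% rose and 3.17% fell. The 42 genes were chosen with earlier results of these data known, so setting them beside all genes is not an independent comparison. The genes that rose were CENPE, BUB1B, MAD2L1, HJURP, BUB1, CENPW, CENPA, CENPF, NDC80, SGO2 and SKA2. The remaining 31 did not pass, with fitted differences from -0.43 to 0.996 on the log2 scale and adjusted p from 0.0586 to 0.971. Of these 31, 9 had an unadjusted p under 0.05, and the share of all genes with such a p was not counted. The median fitted difference was 0.61 over the 42 genes and 0.06 over all genes tested. Summed over the 42 genes, FPKM went from 588 to 1073 in HGC27, a ratio of 1.83, and from 478 to 890 in MKN45, a ratio of 1.86. The differences were uneven across the assembly: checkpoint genes had the highest median fitted difference of the 7 roles (1.18) and the inner kinetochore the lowest (0.41).

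**Figure D1:**
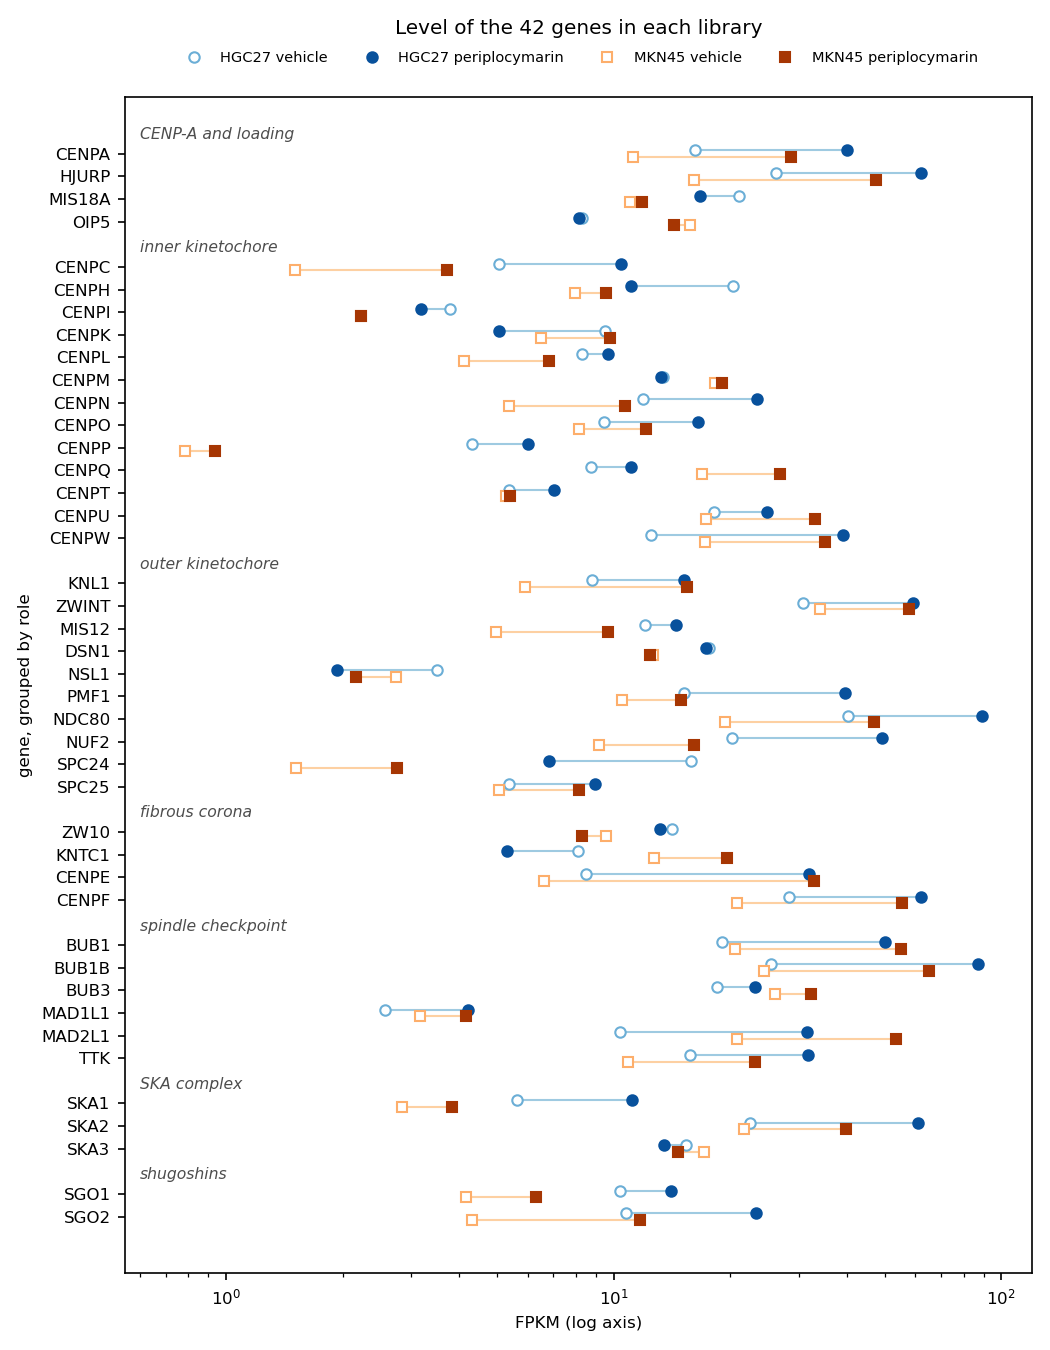
FPKM on a log axis of each of the 42 genes in the 4 libraries, grouped by role, with open symbols for vehicle, filled symbols for periplocymarin, circles for HGC27 and squares for MKN45, 1 library each. CENPE, BUB1B and MAD2L1 moved to the right in both lines, from 8.48 to 32.0 FPKM for CENPE in HGC27, while DSN1, OIP5 and CENPM stayed close to their vehicle level.

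**Figure D2:**
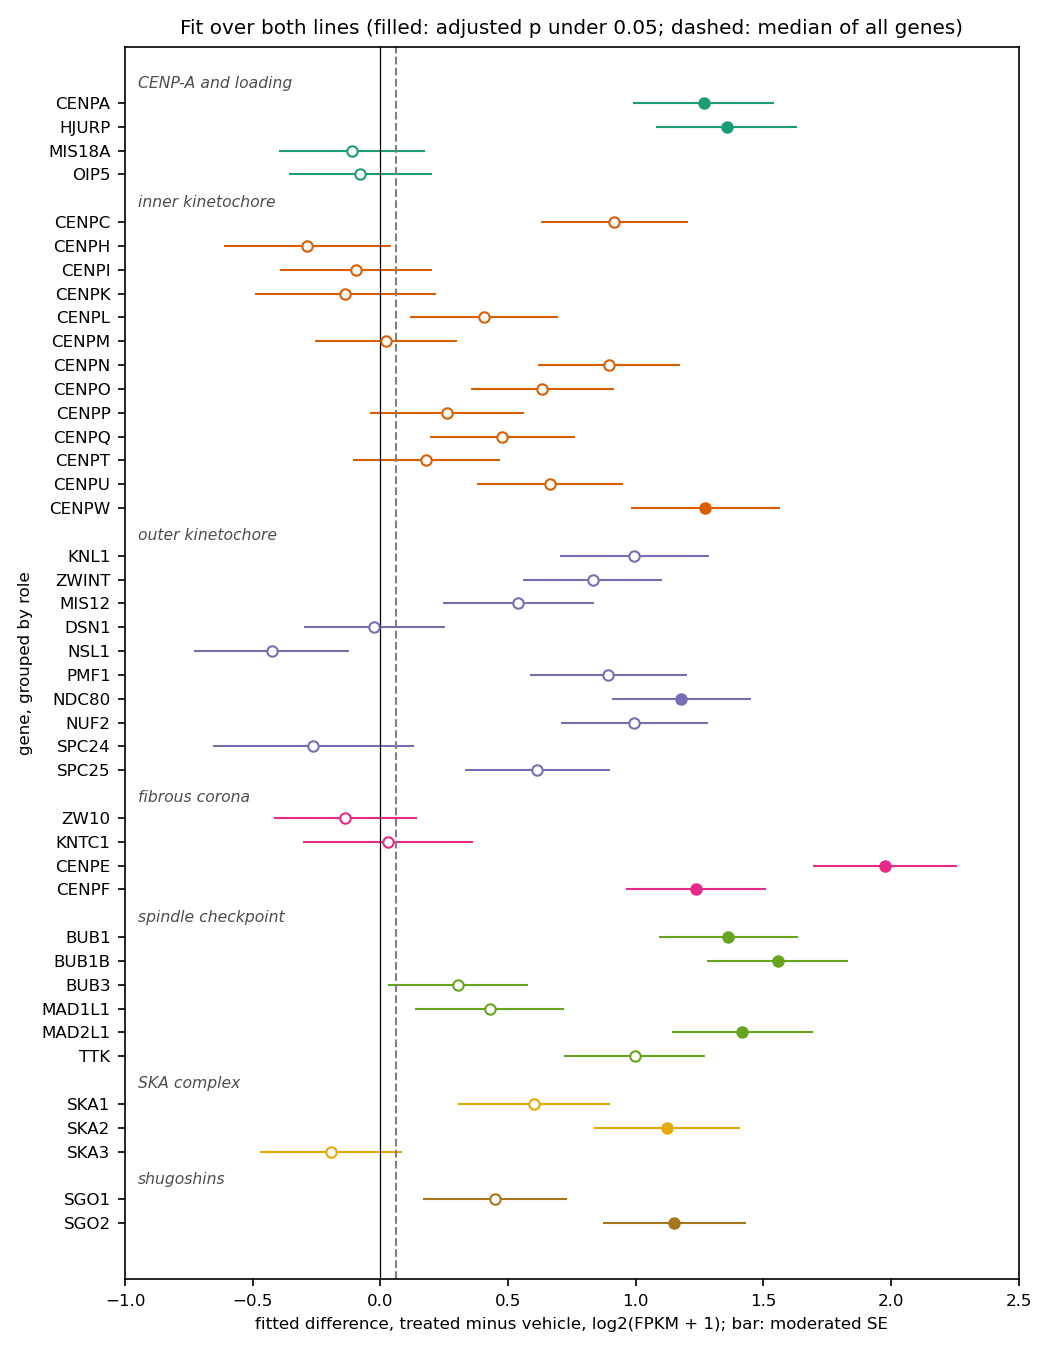
Fitted treated minus vehicle difference of log2(FPKM + 1) over both lines for the 42 genes, with bars of 1 moderated standard error on each side, coloured by role, and a dashed line at the median of all genes tested (0.06). Filled points mark the 11 genes that passed, with CENPE farthest to the right at 1.98 and NSL1 farthest to the left at -0.43.

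The promoter stretches below are shown because many mitotic genes share a pair of promoter elements, the CHR element and the CCAAT box. BUB1B, HJURP and CENPA rose and were chosen for having the CHR letters before the start. DSN1 and OIP5 had a difference near 0 and were chosen with no condition on a motif. The stretches are examples and do not compare members that rose with members that did not. They are the 150 bases before the RefSeq transcription start (GRCh38.p14), 5′ to 3′ on the strand of the gene, with TTTGAA or TTCGAA (CHR) and CCAAT, on either strand, in capitals.
BUB1B, chr15:40160919-40161068, plus strand: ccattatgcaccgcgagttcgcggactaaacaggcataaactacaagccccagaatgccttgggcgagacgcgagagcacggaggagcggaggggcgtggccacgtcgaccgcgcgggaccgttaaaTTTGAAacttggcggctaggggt
HJURP, chr2:233854536-233854685, minus strand: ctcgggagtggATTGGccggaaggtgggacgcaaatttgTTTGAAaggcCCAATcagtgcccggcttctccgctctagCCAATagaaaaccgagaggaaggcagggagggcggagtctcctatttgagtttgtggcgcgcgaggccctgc
CENPA, chr2:26785906-26786055, plus strand: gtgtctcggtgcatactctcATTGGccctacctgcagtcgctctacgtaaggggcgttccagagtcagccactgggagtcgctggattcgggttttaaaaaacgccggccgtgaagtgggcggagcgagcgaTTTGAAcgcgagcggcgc
DSN1, chr20:36773764-36773913, minus strand: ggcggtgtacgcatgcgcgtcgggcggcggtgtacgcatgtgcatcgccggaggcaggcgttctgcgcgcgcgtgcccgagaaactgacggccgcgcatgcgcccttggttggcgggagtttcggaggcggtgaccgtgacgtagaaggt
OIP5, chr15:41332592-41332741, minus strand: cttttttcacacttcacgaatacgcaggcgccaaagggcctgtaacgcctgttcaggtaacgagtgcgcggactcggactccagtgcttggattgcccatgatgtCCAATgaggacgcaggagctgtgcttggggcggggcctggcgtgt
BUB1B, HJURP and CENPA had the largest fitted rise among members with the CHR letters before the start. DSN1 and OIP5 had the smallest fitted difference in size among members with a promoter in the table (-0.02 and -0.08).

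In BUB1B the CHR letters begin 23 bases before the start and in CENPA 18 bases before it. HJURP has them 111 bases before the start, with the CCAAT letters or their complement on both sides. The stretch of DSN1 holds neither motif, and that of OIP5 holds CCAAT but no CHR letters. OIP5 has TTCGAA just past the end of its stretch, beginning at base 2 with the start base as 1. It counts among the windows with the CHR letters below. In the whole window, 250 bases before the start and 50 from it, 34 of the 42 genes had a RefSeq promoter. BUB3, CENPH, CENPL, CENPM, KNL1, KNTC1, MIS18A and TTK had none in the table. TTTGAA or TTCGAA occurred on either strand in 19 of the 34 windows (55.9%) and in 16.4% of all 35116 promoters of that length. CCAAT occurred in 21 of 34 (61.8%) against 34.6% of all promoters, and both motifs together in 13 of 34 (38.2%) against 6.38%. Letters of the E2F type, TTTGGCGC or TTTCGCGC, were in 2 of 34 windows (5.88%) against 1.15%. Those windows were of CENPU and OIP5, and the match of OIP5, GCGCCAAA on the gene strand, lies unmarked in its printed stretch. Matches were counted for each motif on its own, overlaps included, and TTCGAA reads the same on both strands. Split by the test, the CHR letters were in 8 of the 11 genes that rose and 11 of the 23 that did not pass, and CCAAT in 8 of 11 and 13 of 23. CENPE, which rose most, had none of these motifs in its window. In MAD2L1, BUB1, CENPW and CENPF, which rose, the CHR letters begin only past the start. In CENPC, ZWINT, SPC25, ZW10, SKA3 and SGO1, which did not pass, they begin before it. A match describes the letters of the window and does not show that a factor bound there.

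Among the genes of the centromeric nucleosome, CENP-A itself and its chaperone rose, while the genes of the licensing step did not pass. CENPA (chromosome 2, 26764289 to 26801067, GRCh38) encodes the centromeric histone H3 variant. Its level went from 16.2 to 40.1 FPKM (HGC27) and from 11.2 to 28.6 FPKM (MKN45), a fitted difference of 1.27 ± 0.28 (moderated SE, adjusted p = 0.0331). HJURP, the chaperone that deposits CENP-A (chromosome 2, 233833416 to 233854566), went from 26.3 to 62.0 and from 16.1 to 47.6 FPKM, a fitted difference of 1.36 ± 0.28 (adjusted p = 0.0291). For both genes each treated library lay above both vehicle libraries, an order whose share among all genes was not counted. MIS18A and OIP5, subunits of the MIS18 complex that licenses the centromere for new CENP-A, had fitted differences of -0.11 and -0.08 (adjusted p = 0.827 and 0.878). OIP5 was at 8.31 and 8.13 FPKM (HGC27) and at 15.8 and 14.4 FPKM (MKN45), so its order followed the line and not the treatment.

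The inner kinetochore, a network of CENP proteins on the CENP-A nucleosome, had 1 of its 13 genes pass. That gene, CENPW, encodes the histone-fold partner of CENP-T. CENPW stood at 12.5 and 39.0 FPKM in vehicle and treated HGC27 and at 17.3 and 35.0 FPKM in MKN45, a fitted difference of 1.27 ± 0.29 (adjusted p = 0.0376). Its partner CENPT was at 5.37 and 7.01 FPKM (HGC27) and at 5.28 and 5.42 FPKM (MKN45), and did not pass (0.18, adjusted p = 0.712). The ratio of CENPW to CENPT FPKM therefore went from 2.33 to 5.57 in HGC27 and from 3.27 to 6.46 in MKN45. CENPC, which bridges the nucleosome to the MIS12 complex, went from 5.06 to 10.5 and from 1.51 to 3.73 FPKM and missed the threshold (0.92, adjusted p = 0.0778). CENPN, a reader of the CENP-A nucleosome, also missed it (0.90, adjusted p = 0.0771).

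Other inner genes differed in opposite directions in the lines. CENPH, of the CENP-H/I/K/M group, was at 20.3 and 11.1 FPKM in HGC27 but at 7.94 and 9.59 FPKM in MKN45. CENPK, of the same group, was at 9.50 and 5.05 FPKM (HGC27) and at 6.51 and 9.77 FPKM (MKN45). The group's other genes, CENPI and CENPM, had fitted differences of -0.10 and 0.02. CENPP had the lowest level of any member in a library, at 0.786 and 0.940 FPKM in MKN45, under the minimum for a within-line value, and was at 4.30 and 6.02 FPKM in HGC27. The inner genes gave 22.3% of the summed FPKM of the 42 genes in vehicle and 16.8% in treated HGC27, and 23.4% and 19.7% in MKN45.

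In the outer kinetochore, 1 of 10 genes passed and 9 did not, with a median fitted difference of 0.72. NDC80, the microtubule-binding subunit that names its complex, went from 40.2 to 89.1 FPKM (HGC27) and from 19.4 to 46.9 FPKM (MKN45), a fitted difference of 1.18 ± 0.27 (adjusted p = 0.0378). NUF2, which forms a coiled coil with NDC80, was at 20.2 and 49.2 FPKM (HGC27) and at 9.19 and 16.1 FPKM (MKN45), a fitted difference of 0.99 (adjusted p = 0.0651). SPC24 and SPC25 encode the end of the complex that docks on the kinetochore. SPC24 (chromosome 19, 11131520 to 11155808) was at 15.8 and 6.82 FPKM (HGC27) and at 1.52 and 2.76 FPKM (MKN45), opposite in direction, and did not pass (-0.26 ± 0.39, adjusted p = 0.693). SPC25 had a fitted difference of 0.62 (adjusted p = 0.187). The highest level among the 4 subunits was 7.47 times the lowest in vehicle and 13.1 times in treated HGC27, and 12.8 and 17.0 times in MKN45.

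KNL1, the scaffold for the BUB proteins, was at 8.78 and 15.2 FPKM (HGC27) and at 5.90 and 15.5 FPKM (MKN45), a fitted difference of 0.99 (adjusted p = 0.0671). ZWINT, its binding partner, had a fitted difference of 0.83 (adjusted p = 0.0865). Of the MIS12 complex, which links the inner to the outer kinetochore, PMF1 was at 15.2 and 39.4 FPKM (HGC27) and at 10.5 and 14.9 FPKM (MKN45), a fitted difference of 0.89 (adjusted p = 0.0994). PMF1 shares its span with a readthrough transcript of PMF1 and BGLAP, so its reads may be split between models. DSN1 was at 17.6 and 17.3 FPKM (HGC27) and at 12.6 and 12.4 FPKM (MKN45), with a fitted difference of -0.02 (adjusted p = 0.968). NSL1 had the lowest fitted difference of the 42 genes (-0.43, adjusted p = 0.380), at 3.50 and 1.94 FPKM in HGC27 and 2.74 and 2.17 FPKM in MKN45. The highest MIS12 complex subunit was 5.04 times the lowest in vehicle and 20.3 times in treated HGC27, and 4.60 and 6.88 times in MKN45, with NSL1 lowest in each library. The size of these gaps depends on the gene lengths used. By recovered reads NSL1 was the highest subunit of the complex in both vehicle libraries, at 1565 in HGC27 and 1402 in MKN45. MIS12 was the lowest there, at 1225 and 580 reads. In both treated libraries NSL1 was the lowest by reads too, at 634 in HGC27 and 718 in MKN45.

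In the fibrous corona, the outermost layer that grows on unattached kinetochores, 2 of 4 genes rose. CENPE (ENSG00000138778), a plus-end-directed kinesin that carries chromosomes to the metaphase plate, had the largest difference of the 42 genes in both lines. It went from 8.48 to 32.0 FPKM in HGC27, a ratio of 3.78, and from 6.62 to 32.9 FPKM in MKN45, a ratio of 4.96. The fitted difference was 1.98 ± 0.28 (adjusted p = 0.0161). The lines began and ended at similar levels, with no overlap between vehicle and treated libraries, and the share of all genes without overlap was not counted. CENPF, a large coiled-coil protein that binds the dynein regulators NDE1 and NDEL1, went from 28.4 to 62.2 and from 20.8 to 55.3 FPKM, a fitted difference of 1.24 ± 0.27 (adjusted p = 0.0345).

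ZW10 and KNTC1 encode subunits of the RZZ complex, which recruits dynein and MAD1 to the corona. ZW10 was at 14.2 and 13.2 FPKM (HGC27) and at 9.55 and 8.30 FPKM (MKN45), a fitted difference of -0.14 (adjusted p = 0.776). KNTC1 was at 8.08 and 5.31 FPKM (HGC27) and at 12.8 and 19.6 FPKM (MKN45), so the fitted difference was near 0 (0.03, adjusted p = 0.965).

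All 6 spindle checkpoint genes were higher in the treated library in both lines on the deposited scale, and 3 passed, while the fitted difference of BUB3 turned to -0.086 with quantile and -0.16 with cyclic loess normalization. BUB1B (ENSG00000156970, chromosome 15, 40161023 to 40221136, plus strand), which encodes BUBR1 of the mitotic checkpoint complex, went from 25.5 to 87.2 FPKM (HGC27) and from 24.4 to 65.1 FPKM (MKN45). Its fitted difference was 1.56 ± 0.28 (adjusted p = 0.0247), and its span overlaps a readthrough model with PAK6. MAD2L1 (chromosome 4, 120055608 to 120067074, minus strand) encodes MAD2, which binds CDC20, and went from 10.4 to 31.6 and from 20.8 to 53.4 FPKM (1.42 ± 0.28, adjusted p = 0.0263). BUB1 (chromosome 2, 110637698 to 110678114, minus strand), the kinase that marks centromeric histone H2A, went from 19.0 to 49.999 and from 20.6 to 55.1 FPKM (1.36 ± 0.27, adjusted p = 0.0284). For all 3 genes each treated library lay above both vehicle libraries, an order whose share among all genes was not counted. MAD2L1 was higher in MKN45 than in HGC27 under both treatments.

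TTK encodes MPS1, the kinase that starts checkpoint signalling, and narrowly missed the threshold, at 15.7 and 31.7 FPKM in HGC27, 10.9 and 23.1 FPKM in MKN45 (0.996 ± 0.28, adjusted p = 0.0586). BUB3, a WD-repeat partner of BUB1 and BUBR1, was at 18.5 and 23.2 FPKM (HGC27) and at 26.1 and 32.3 FPKM (MKN45), a fitted difference of 0.30 (adjusted p = 0.492). MAD1L1, which anchors MAD2 at kinetochores, had the lowest level of the 6, between 2.57 and 4.21 FPKM (0.43, adjusted p = 0.362). Checkpoint genes gave 15.6% of the summed FPKM of the 42 genes in vehicle and 21.2% in treated HGC27, and 22.2% and 26.2% in MKN45.

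Of the SKA complex, which helps kinetochores track shortening microtubules, SKA2 rose and SKA1 and SKA3 did not pass. SKA2 went from 22.5 to 60.9 FPKM (HGC27) and from 21.6 to 39.7 FPKM (MKN45), a fitted difference of 1.12 ± 0.29 (adjusted p = 0.0493). SKA1 had a fitted difference of 0.60 (adjusted p = 0.217). SKA3 was at 15.3 and 13.5 FPKM (HGC27) and at 17.1 and 14.6 FPKM (MKN45), a fitted difference of -0.19 (adjusted p = 0.678). Of the shugoshins, which protect centromeric cohesin, SGO2 went from 10.7 to 23.3 and from 4.32 to 11.7 FPKM (1.15 ± 0.28, adjusted p = 0.0449). SGO1 was at 10.4 and 14.0 FPKM (HGC27) and at 4.17 and 6.31 FPKM (MKN45), a fitted difference of 0.45 (adjusted p = 0.318). SKA2 and SGO2 were the genes nearest the threshold among those that rose.

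Within a line the call was a difference of at least 1 in log2(FPKM + 1), with no test. In HGC27, 13 of 42 genes were higher by that measure, against 9.72% of all genes measured there. SPC24 alone was lower, against 10.4% of all genes. In MKN45, 11 of 41 genes were higher, against 8.21% of all genes, and 0 were lower, against 8.94%. The genes past the mark in both lines were CENPA, HJURP, NDC80, CENPE, CENPF, BUB1, BUB1B, MAD2L1 and SGO2, 9 of 41, against 3.38% of all genes measured in both lines. PMF1, NUF2, CENPW and SKA2 reached it in HGC27 alone, with MKN45 differences between 0.47 and 0.98. KNL1 and TTK reached it in MKN45 alone, with HGC27 differences of 0.73 and 0.97. Whether these 6 genes differ between lines was not tested.

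Across the 41 genes, on the deposited scale, 29 were higher in both treated libraries, against 44.5% of all genes, and 6 were lower in both (OIP5, CENPI, DSN1, NSL1, ZW10 and SKA3). The other 6, MIS18A, CENPH, CENPK, CENPM, SPC24 and KNTC1, were lower in HGC27 and higher in MKN45, and none of the 41 had the reverse pattern. The shares of all genes lower in both lines, or opposite in each direction, were not counted. For SPC24, CENPK and KNTC1 both differences were at least 0.5 in size, 3 of 41 genes, against 2.25% of all genes. The differences of the lines had a Pearson r of 0.733 and a Spearman rho of 0.774 across these 41 genes, which share the same 4 libraries and are not independent replicates. Counting intervals (exact Clopper-Pearson, 95%, counting error only) had a median half-width of 0.11 in HGC27 and 0.13 in MKN45 on the log2 scale. They are for the ratio of reads scaled by library size, without the added 1. A difference of log2(FPKM + 1) can therefore lie outside its interval. They kept the opposite signs apart for SPC24, from -1.37 to -1.06 in HGC27 and from 0.55 to 1.18 in MKN45. The same held for KNTC1, from -0.70 to -0.51 and from 0.57 to 0.68, and for CENPK, from -1.06 to -0.76 and from 0.46 to 0.71.

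**Figure D3:**
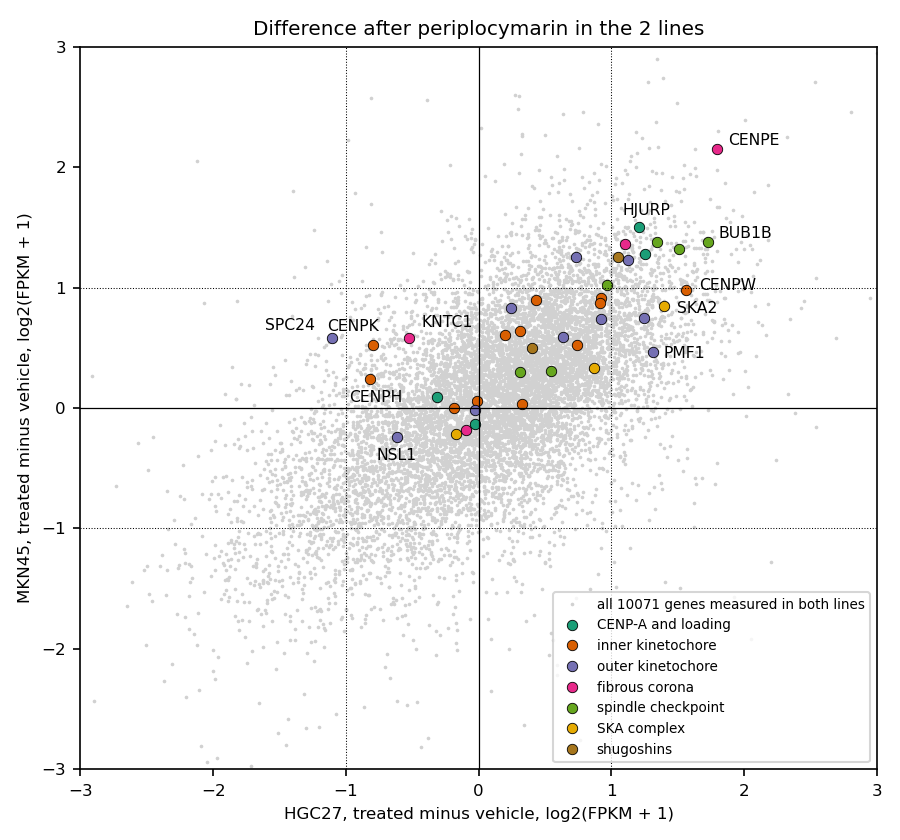
Treated minus vehicle difference of log2(FPKM + 1) in HGC27 (horizontal axis) and MKN45 (vertical axis) for the 41 genes measured in both lines, coloured by role, over all 10071 genes measured in both in grey; axes end at 3 in either direction and dotted lines mark a difference of 1. The members lie mostly in the upper right, CENPE farthest out at 1.80 and 2.15, and SPC24, CENPK and KNTC1 lie in the upper left.

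In vehicle, the genes were higher in HGC27 for 31 of 42, with a median difference of 0.47 between lines in log2(FPKM + 1), against -0.04 over all genes. Of these, 10 were at least 2-fold higher in HGC27 (CENPC, CENPH, CENPN, CENPP, MIS12, NDC80, NUF2, SPC24, SGO1 and SGO2), against 14.3% of all genes, and 0 were 2-fold higher in MKN45, against 17.4%. SPC24 had the widest gap, at 2.74. The lowest values of HGC27 minus MKN45 were those of MAD2L1 (-0.93), CENPQ (-0.88) and OIP5 (-0.85). With 1 vehicle library per line, the spread of these gaps is unknown.

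The fitted difference of the 42 genes followed their level, with a Spearman rho of 0.647 against mean FPKM and of 0.168 against gene length (42 genes in the same 4 libraries). The mean includes the treated libraries, so a rise itself raises a gene's level. The log2(FPKM + 1) scale also understates fold changes of low genes. Between 30 and 100 FPKM, 6 of 7 genes rose, against 12.3% of all genes at that level. Between 10 and 30 FPKM, 5 of 23 rose, against 6.39%, and under 10 FPKM none of 12 rose, against 1.25% of all genes between 3 and 10 FPKM and 0.299% between 1 and 3. CENPC, at a mean of 5.19 FPKM, passed with limma-voom on recovered reads (adjusted p = 0.0497). The median fitted difference of all genes went from -0.29 between 1 and 3 FPKM to 0.52 between 30 and 100 FPKM, and was 0.35 at 100 FPKM and above, where 8.79% rose and no member lay. Between 30 and 100 FPKM the median of the members was 1.24. The part of this trend with level in the results was not tested.

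**Figure D4:**
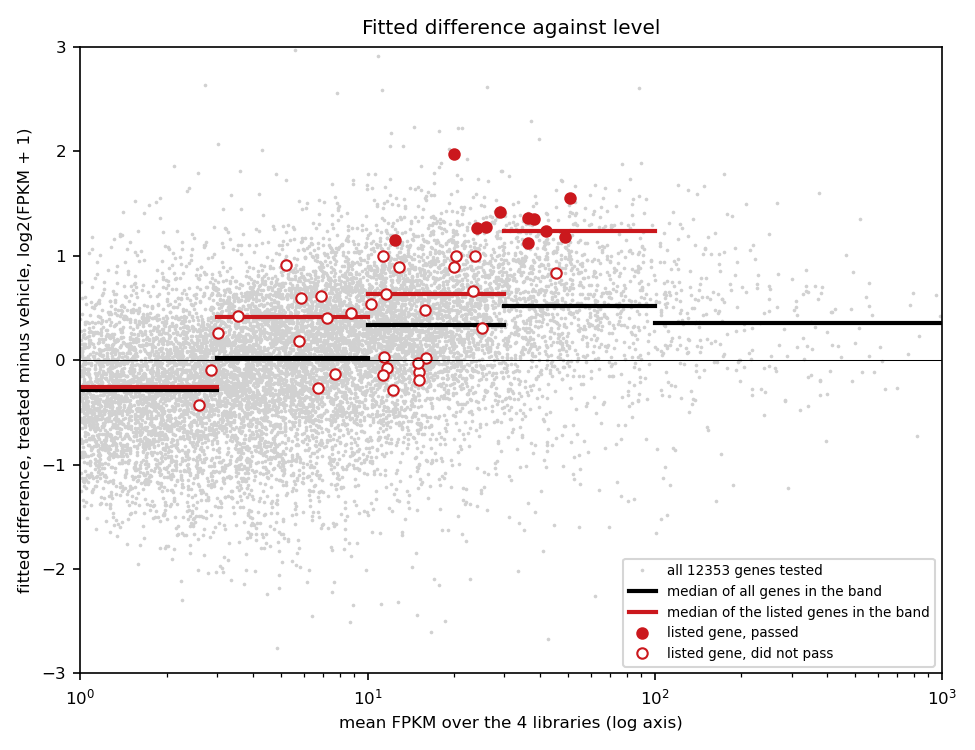
Fitted treated minus vehicle difference of log2(FPKM + 1) against mean FPKM over the 4 libraries (log axis) for the 42 genes in red, filled where they passed, over all 12353 genes tested in grey, with bars for the median of all genes (black) and of the 42 genes (red) in each band of level. The 11 genes that rose average 10 FPKM or more and lie above the black bar of their band.

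Companion lists of the same pathway and of the cell cycle had 64 genes, of which 15 rose and 1 fell. These lists, too, were chosen with earlier results of these data known. Of 5 further inner kinetochore and loading genes, 0 rose and 1 fell: CENPS, a histone-fold subunit, went from 7.98 to 1.87 FPKM (HGC27) and from 13.9 to 4.29 FPKM (MKN45), a fitted difference of -1.57 ± 0.28 (adjusted p = 0.0248). CENPS overlaps a readthrough model with CORT, so its reads may be split. Of 7 further corona and checkpoint genes, CDC20, the target of the checkpoint, was the 1 that rose, from 83.9 to 196 and from 45.3 to 107 FPKM (1.22, adjusted p = 0.0331). Of 5 genes of the chromosomal passenger complex and its histone kinase, BIRC5, which encodes survivin, rose (1.12, adjusted p = 0.0449), and INCENP missed the threshold (1.04, adjusted p = 0.0599).

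Of 8 microtubule partners of the kinetochore, SPAG5 (1.46, adjusted p = 0.0257) and KIF2C, a microtubule-depolymerising kinesin (1.12, adjusted p = 0.0449), rose. KIF18A, a kinesin that dampens chromosome movement, had the second largest fitted difference of that list and missed the threshold (1.19, adjusted p = 0.050002). Of 11 genes of cohesin and its release, PTTG1, which encodes securin, was the 1 that rose, from 41.9 to 131 FPKM (HGC27) and from 33.8 to 86.7 FPKM (MKN45), a fitted difference of 1.48 (adjusted p = 0.0257). The general mitotic genes, listed as markers of the phase although some, such as PLK1, also act at kinetochores, had 8 of 12 rise with a median fitted difference of 1.29. Their examples are KIF20A, a kinesin of cytokinesis (1.58, adjusted p = 0.0247), and CCNB1, which encodes cyclin B1 (1.41, adjusted p = 0.0280). Their summed FPKM was 2.52 times the vehicle value in HGC27 and 2.26 times in MKN45, beside 1.83 and 1.86 times for the 42 genes. Of 16 G1/S and replication genes, 2 rose, CDC25A (1.89, adjusted p = 0.0226) and RRM2 (1.34, adjusted p = 0.0289), with a median of 0.56. The mitotic genes thus moved with the kinetochore genes, and their part in the result was not tested.

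How the libraries are scaled decides how many of the 42 genes pass. With quantile or cyclic loess normalization 2 genes passed, BUB1B and CENPE, against 1.46% and 1.68% of all genes. With library totals alone 9 passed, SGO2 and SKA2 being lost, against 2.94%. Library totals shifted the median of all genes by -0.22. Of all calls, 52.0% were higher on the deposited scale, 33.9% with quantile normalization, 31.9% with cyclic loess and 23.8% with totals alone. The median fitted difference of the 42 genes was 0.41, against 0.02 over all genes, with quantile normalization. With totals alone it was 0.36 against -0.16. Genes of like level were not compared under these scalings, and the part of scaling in the result was not tested. The other settings left the scale as deposited. A floor of 10 FPKM gave 17 of 30 genes, against 23.7% of all genes tested; a pseudocount of 0.1 gave 13 of 42, against 6.07%; and limma-voom on the recovered reads gave 14 of 42, against 6.94%. No member was called lower under any of these settings, against 2.84% of all genes with quantile normalization, 3.59% with cyclic loess and 9.41% with library totals. With the floor, the pseudocount and limma-voom the lower share of all genes was 4.47%, 5.91% and 5.41%.

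**Figure D5:**
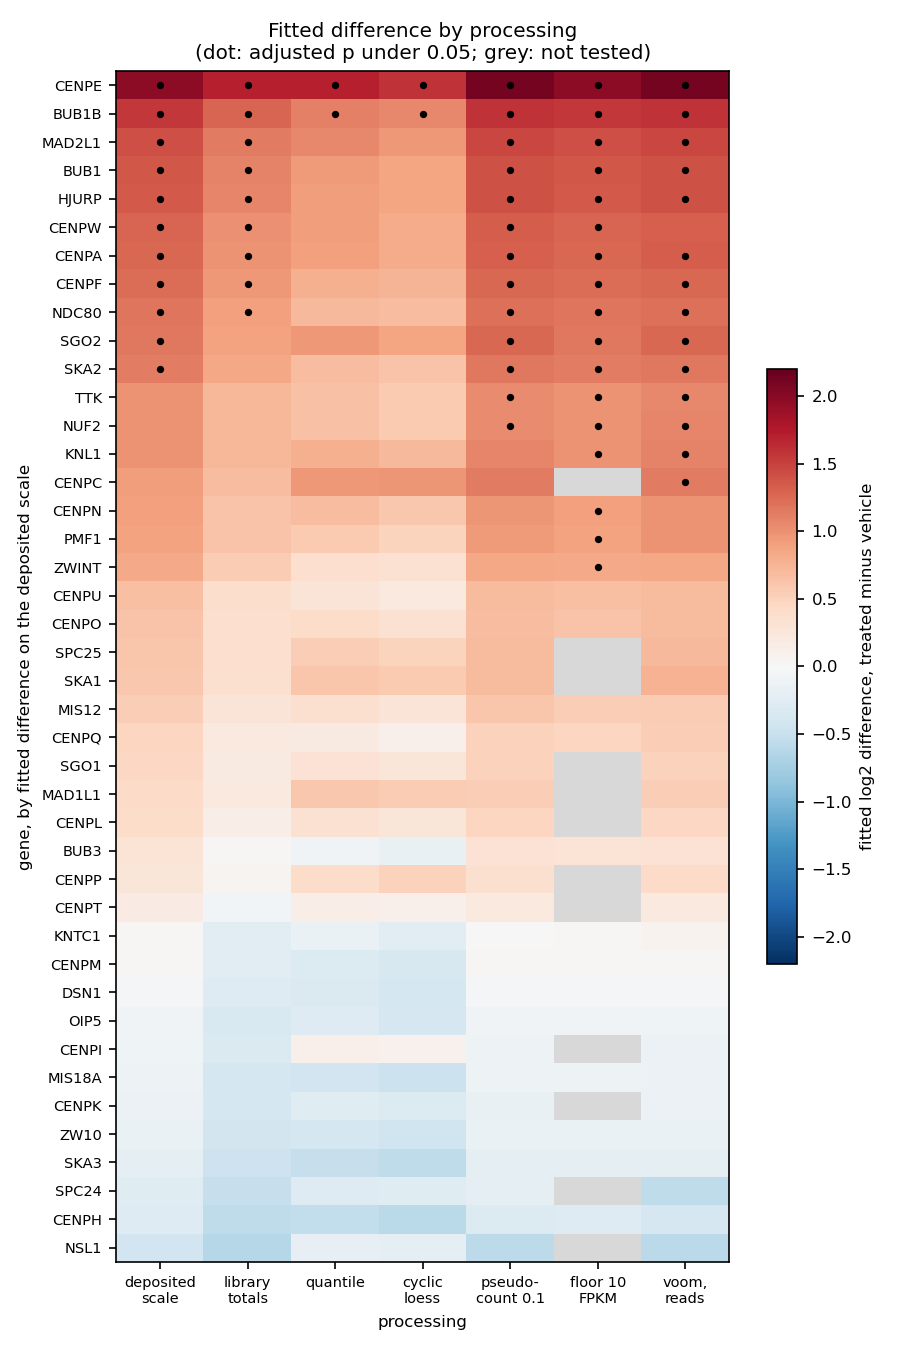
Fitted log2 difference of each of the 42 genes (vertical axis, sorted by the value on the deposited scale) under the deposited scale and 6 alternatives (horizontal axis), red for higher and blue for lower after periplocymarin, with a dot where the gene passed and grey where it was not tested. BUB1B and CENPE have dots in all 7 columns, and library totals keep 9 of the 11 dots of the deposited scale.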

How the data were processed

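Messenger RNA was measured in 4 libraries, 1 per line and treatment, with groups taken from the sample titles. The authors deposited FPKM, a unit inferred from the values because no header names it. HISAT2 2.1.0, fastp 2.0 and hg38 are listed, per the submitters' processing notes, while the counter, annotation and strand setting are not given in those notes or the labels. Reads were recovered from the steps between values (tolerance 0.0001 reads) and used for depth, library totals, the read filter, counting error and limma-voom. Of the genes above 0 with a GENCODE 29 length, 49.9% gave whole reads at that length. Others above 0 in at least 3 libraries took a searched length. Those above 0 in fewer libraries were rounded to whole reads at the GENCODE 29 length where there was one. The implied library sizes differ from the recovered totals by factors of 0.862 to 1.20, so the FPKM appear to carry a scaling factor.

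The main test used limma-trend (limma 3.58.1, R 4.3.3) and log2(FPKM + 1). Tested genes averaged 1 FPKM or more and 10 recovered reads or more over the libraries; fold changes on this scale understate those of low genes. Each pair shares a cell line, so the line is the block. The fit has 1 residual and 8.53 prior degrees of freedom, so p-values rest mostly on a spread pooled over genes of similar level. The spread of a gene between its 2 pairs of libraries, which may be technical, has a small part in them. The moderated SE of the members lay between 0.27 and 0.39. On simulated data for this comparison with 12353 genes, calls recovered 36.0% of 2-fold changes and 93.5% of 4-fold ones, with 5.53% false among the calls. The simulation gave every gene the same assumed spread and changed a small set of genes equally in both lines. It held no trend with level and no scaling difference, so these rates may not hold for the calls made here.

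Values in every library were given for members that passed, the largest differences within each line, members opposite between lines by at least 0.5 in each, and members under a filter; others named with values were chosen after their values were seen. Companion lists name at most the 2 largest, besides KIF2C, named because it passed. The members and lists were chosen with earlier results of these data known. Alternatives were quantile, library-total and cyclic loess scaling, filters, pseudocount, limma-voom, no block and leaving out each line. The spans of 26 of the 42 genes, including 8 of the 11 that rose, overlap another GENCODE 29 gene model; CENPE, BUB1 and CENPW do not. IDs with a symbol numbered 62639.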

Additional observations from a re-analysis of the deposited data

Results flagged for a closer look

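3 genes had differences of opposite sign in the lines, each at least 0.5 on the log2(FPKM + 1) scale, and with 1 library per group the difference between lines was not tested. Among all genes measured in both lines, 2.25% had such a pair, in either direction. SPC24, of the NDC80 complex, differed by -1.10 in HGC27 and 0.58 in MKN45, a gap of -1.68. CENPK, of the CENP-H/I/K/M group, differed by -0.79 and 0.52, a gap of -1.31. KNTC1, of the RZZ complex, differed by -0.52 and 0.58, a gap of -1.11. In each case HGC27 was lower and MKN45 higher after periplocymarin.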

How the results depend on the processing

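The 11 higher calls became 2 with quantile normalization, 2 with cyclic loess and 17 with a floor of 10 FPKM, where 30 of the 42 genes were tested. Calls numbered 0 with no filter on low values and 0 with no replicate block, settings under which limma called no gene of the whole table. The cause was not tested. Under these 2 settings 20 and 10 members had an unadjusted p under 0.05, and the share of all genes with such a p was not counted. limma-voom called 14 and the pseudocount of 0.1 called 13. CENPW missed the threshold with limma-voom (adjusted p = 0.0526). No member was called lower in any setting. The pairs are defined by the cell line, which the block follows. The median fitted difference of 0.61 became 0.41 with quantile normalization, 0.36 with library totals, 0.41 with cyclic loess, 0.89 with the floor, 0.69 with a pseudocount of 0.1 and 0.70 with limma-voom; leaving out 1 line gave 0.59 to 0.60, with no residual degrees of freedom and so no test.

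In HGC27 the 13 higher genes became 4, 6 and 3 with quantile, library-total and loess scaling, and the 1 lower gene became 2, 3 and 2. Its median became 0.43, 0.31 and 0.44 with these, 0.70 with the pseudocount of 0.1 and 0.92 with the floor. In MKN45 the 11 higher genes became 7 with quantile and 2 with loess scaling, and the median became 0.42 with library totals, 0.42 with loess and 0.85 with the floor. For both lines, the shares of all genes past the within-line mark under these scalings were not counted. Signs reversed, in genes that did not pass, for CENPI (quantile 0.11, loess 0.10), CENPM (quantile -0.30, totals -0.25, loess -0.36), CENPT (totals -0.063), KNTC1 (quantile -0.15, totals -0.23, loess -0.24) and BUB3 (quantile -0.086, loess -0.16). Counting intervals were at most 0.25 in half-width in HGC27 and 0.31 in MKN45.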

Other observations

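Subunits that act in 1 complex were compared by their level, with complexes chosen after the values were seen and no test. The size of each ratio depends on the gene lengths used. The ratio of the highest to the lowest FPKM in the SKA complex went from 3.99 to 5.47 in HGC27 and from 7.61 to 10.4 in MKN45. For CENPN over CENPL, which form 1 unit, it went from 1.43 to 2.41 and from 1.31 to 1.57. For HIKM it went from 5.39 to 4.15 and from 8.19 to 8.57, with CENPI lowest in each library. For MIS18A and OIP5 it went from 2.53 to 2.05 and from 1.44 to 1.22. KNL1 and ZWINT stood 3.51 and 3.89 apart in HGC27 and 5.78 and 3.73 in MKN45, so the gap widened in HGC27 and narrowed in MKN45.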
